A study of Mus musculus with 2 samples.

Results

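The genes described here are 44 protein-coding genes of glycolysis, glycogen metabolism and lactate transport, taken by name from a list of pathway genes. No measured value served as a rule for the choice, but the list was made with earlier results of these data known. All 44 matched the annotation, out of 55536 annotated genes and 22015 nuclear protein-coding genes in the tables. They were measured by total RNA-seq in the gastrocnemius, a large muscle of the calf. The mice were B6CASTF1/J hybrids from The Jackson Laboratory, male and 10 days old. The 2 libraries form 1 group and come from different mice, each from 300 ng of RNA with ERCC spike-in RNAs added, and neither mouse carried a labelled treatment or engineered allele. The labels number the mice differently but give them 1 donor code. Whether the reads of the 2 parental genomes aligned equally well to the mm10 reference was not tested.

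Glycolysis splits glucose into pyruvate in the cytosol and yields ATP without oxygen. In muscle it is fed from the blood through glucose transporters and from glycogen, a branched glucose store that phosphorylase takes down when a fibre contracts, and fast fibres send much of the pyruvate on to lactate, which leaves through monocarboxylate transporters. Most steps have several isozymes, encoded by different genes, of which 1 is typical of skeletal muscle and the others of liver, brain, red cells or dividing cells.

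Library depth was 38160786 expected counts for replicate 2 and 38874862 for replicate 1. No second condition was labelled, so levels and the difference between 2 mice are described without a test: with 2 libraries, the smallest two-sided p of an exact sign-flip test is 0.5. Levels are TPM, a relative abundance scaled for transcript length, from the deposited gene tables, and errors are SD with n = 2. All 6 markers of muscle identity that were checked, among them Acta1, Ckm and Myog, reached 1 TPM in both libraries, and so did all 9 markers of fast fibres. This low cut does not tell cell types apart. All 8 slow fibre markers passed it, as did all 6 in each of the endothelial, mural, fibroblast, macrophage, and Schwann cell and nerve lists. Of the erythroid and the adipocyte markers, 5 of 6 each passed. In a bulk sample, fewer cells of a type and less RNA per cell cannot be told apart.

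The 44 genes summed to 19647 TPM in replicate 2 and 19098 in replicate 1, which is 4.41% ± 0.0589 of all nuclear protein-coding TPM. Only a few of them carried that sum: the 5 highest, Aldoa, Gapdh, Eno3, Pygm and Pgam2, held 67.0% ± 1.08 of it, and the 10 highest held 89.0% ± 0.430. Of the 44, 42 reached 1 TPM in both libraries, as did 51.4% of all nuclear protein-coding genes. At 100 TPM the numbers were 15 of 44 genes and 2.39% of all genes, and at 1000 TPM they were 6 of 44 genes and 0.145% of all genes. The remaining 2 genes, Aldoc and Eno2, isozymes known from brain, had mean counts of 31.5 and 56.5. The median gene of the list had 56.0 TPM in replicate 2 and 60.1 in replicate 1.

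**Figure D1:**
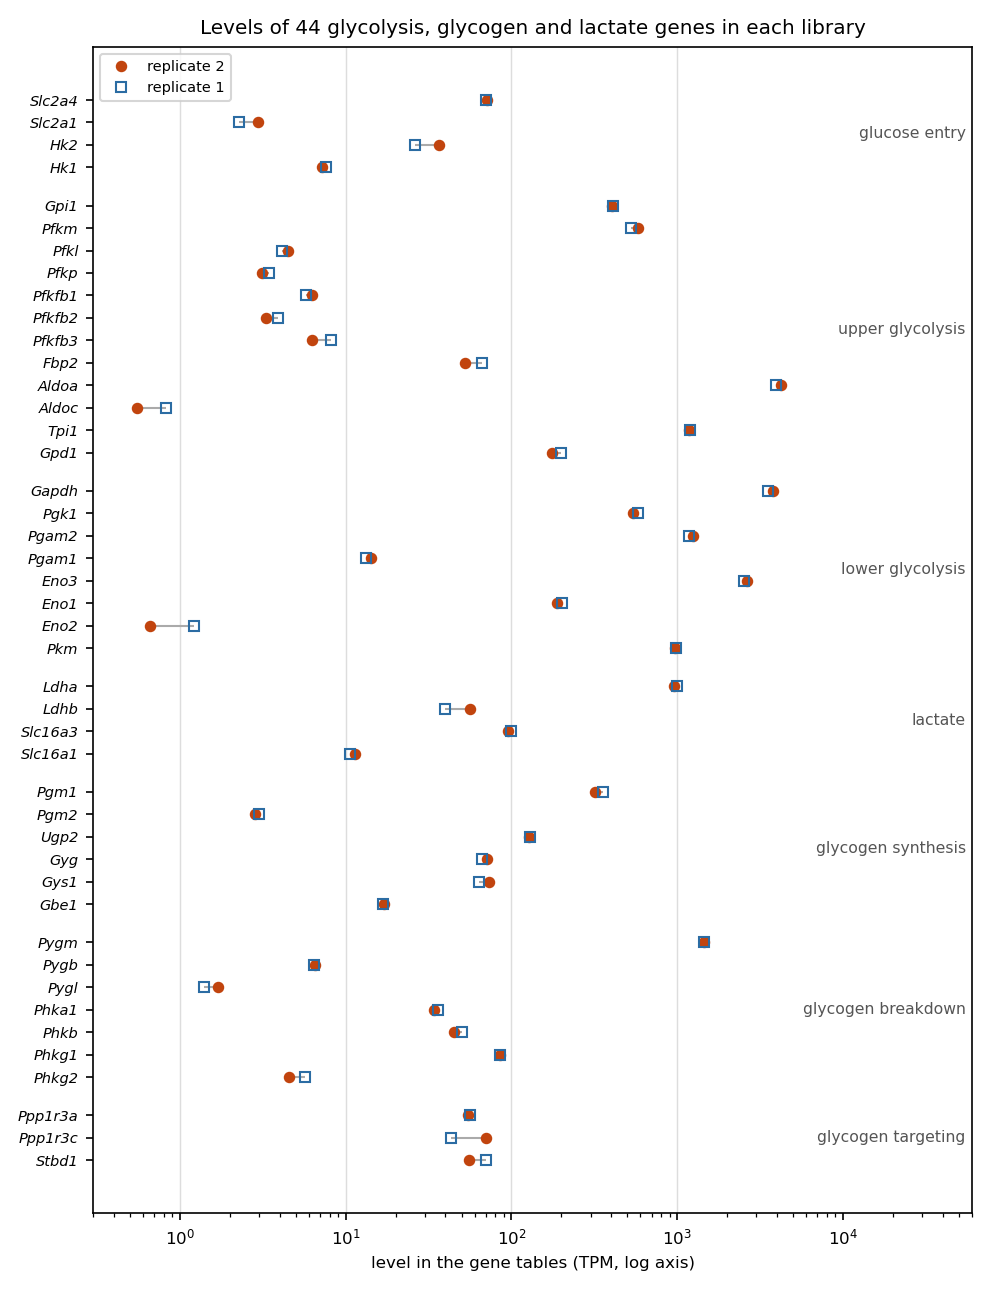
Level of each of the 44 genes in replicate 2 (filled circles) and replicate 1 (open squares), in TPM on a log axis, ordered by role. The genes span from under 1 TPM (Aldoc, Eno2 in replicate 2) to about 4000 TPM (Aldoa at 4065 ± 191), and within most steps 1 gene lies far to the right of its isozymes.

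Glucose enters muscle mainly through GLUT4, the insulin-regulated transporter encoded by Slc2a4 (chromosome 11, 69942539 to 69948188, minus strand). Slc2a4 had 71.2 TPM in replicate 2 and 70.4 in replicate 1, while Slc2a1, which encodes GLUT1, the basal transporter of endothelium and many other cells, had 2.97 and 2.29 TPM. Slc2a4 thus held 95.5% ± 0.210 of the summed TPM of Slc2a4, Slc2a1 and Slc2a3. Other transporters of the family were measured too: Slc2a12 had 7.95 and 6.78 TPM, Slc2a8 had 2.73 and 3.05 TPM and Slc2a10 had 1.60 and 1.45 TPM. With these, a set chosen after the data had been seen, the share of Slc2a4 was 82.4% ± 0.741. Hexokinases trap glucose as glucose 6-phosphate, and here Hk2, the insulin-responsive muscle type on chromosome 6, led Hk1, the general type on chromosome 10. Hk2 had 36.7 TPM in replicate 2 and 26.2 in replicate 1, and Hk1 had 7.16 and 7.59 TPM. Hk2 differed between the mice and Hk1 hardly, so the share of Hk2 among 5 hexokinase genes was 82.5% in replicate 2 and 76.5% in replicate 1. Entry and trapping were thus the steps with the lowest leading levels of the route from glucose to lactate. No lead gene there passed 100 TPM, whereas every later step to lactate had a gene at or above the 403 TPM of Gpi1 in replicate 2.

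In the upper part of glycolysis, which spends ATP, levels stepped up. Gpi1, the isomerase that makes fructose 6-phosphate, had 403 TPM in replicate 2 and 409 in replicate 1. Pfkm, the muscle subunit of phosphofructokinase, which catalyses the committed step (chromosome 15, 98092589 to 98132451, plus strand), had 581 and 530 TPM. The liver and platelet subunits had far less: Pfkl had 4.48 and 4.13 TPM, and Pfkp had 3.14 and 3.44 TPM. The bifunctional kinases, which set the level of the phosphofructokinase activator fructose 2,6-bisphosphate, were low and evenly spread. Pfkfb3 had 6.25 TPM in replicate 2 and 8.21 in replicate 1, Pfkfb1 had 6.25 and 5.79 TPM, and Pfkfb2 had 3.33 and 3.91 TPM. The highest of that family was a gene outside the 44, Pfkfb4, at 7.15 and 11.5 TPM, with 35.1% ± 5.59 of the family. Fbp2, the muscle fructose bisphosphatase, which runs the opposite reaction, had 52.8 TPM in replicate 2 and 66.6 in replicate 1.

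Aldolase and triose phosphate isomerase split the hexose into trioses. Aldoa (chromosome 7, 126795234 to 126800751, minus strand) had 4199.95 TPM in replicate 2 and 3930 in replicate 1, rank 12 among nuclear protein-coding genes. Aldoc, by contrast, had 0.55 TPM in replicate 2 and 0.83 in replicate 1. A further Aldoa identifier beside it held 9 and 8 counts and was left out. Tpi1 had 1178 and 1194 TPM, rank 29. Tpi1 and Eno2 are near neighbours on the minus strand of chromosome 6, at 124810586 to 124814296 and 124760053 to 124769673, yet Eno2 had 0.66 TPM in replicate 2 and 1.22 in replicate 1. Gpd1, which draws off triose to glycerol 3-phosphate and passes cytosolic reducing power to mitochondria, had 175 and 199 TPM, against 44.8 and 52.9 TPM for its mitochondrial partner Gpd2.

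The lower part of the pathway, which yields ATP, held most of the highest genes. Gapdh (chromosome 6, 125161715 to 125166467, minus strand), the dehydrogenase that makes NADH, had 3799 TPM in replicate 2 and 3536 in replicate 1, and the 2 quantification tables differ on it as described further on. Pgk1, the X-linked kinase of the first ATP-yielding step, had 541 and 577 TPM. Its testis-specific retrogene Pgk2 had 0 counts in both libraries, which allows up to 3 counts each. Pgam2, the muscle phosphoglycerate mutase (chromosome 11, 5801640 to 5803733, minus strand), had 1247 and 1181 TPM, and Pgam1, the general mutase, had 14.2 and 13.3 TPM. Eno3, the muscle enolase (chromosome 11, 70657202 to 70662513, plus strand), had 2621 TPM in replicate 2 and 2546 in replicate 1. Eno1, the general enolase, had 189 and 202 TPM and was the highest of all isozymes that did not lead their family. Its value is uncertain, because the near-identical copy Eno1b had 4659 and 4948 counts, beside 7478 and 7848 counts for Eno1. None of the other 14 features named as copies of these genes reached 1 TPM in both libraries. Copies were looked for by symbol only, so any under unrelated names were not examined.

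Pyruvate kinase closes glycolysis, and Pkm (chromosome 9, 59656368 to 59679375, plus strand) was the only gene of the step with counts: it had 973 TPM in replicate 2 and 986 in replicate 1, while Pklr, the liver and red cell gene, had 0 counts in both gene tables. Pkm transcripts carry either of 2 mutually exclusive coding exons of 167 bases, which give the M1 form of adult muscle or the M2 form of embryonic and dividing cells. The exons are shown because the balance of the forms turns on them, and capitals mark the 64 positions at which they differ. The M1 exon lies upstream, at chr9:59675029-59675195 on the plus strand of mm10, and the M2 exon follows after 372 bases, at chr9:59675568-59675734.
Pkm M1 exon: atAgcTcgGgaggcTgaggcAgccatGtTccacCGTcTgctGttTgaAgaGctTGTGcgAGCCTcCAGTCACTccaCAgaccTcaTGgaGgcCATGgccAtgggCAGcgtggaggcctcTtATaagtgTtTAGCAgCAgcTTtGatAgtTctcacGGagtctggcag
Pkm M2 exon: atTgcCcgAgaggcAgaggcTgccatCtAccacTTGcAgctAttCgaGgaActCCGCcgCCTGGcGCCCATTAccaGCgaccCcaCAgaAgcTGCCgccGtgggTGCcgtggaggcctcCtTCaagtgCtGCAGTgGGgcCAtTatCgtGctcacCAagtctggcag
The exons share 61.7% of their positions. Transcripts with the M1 exon took 53.0% of Pkm TPM in replicate 2 and 53.4% in replicate 1, which is 516 and 526 TPM, and Pkm-201, which holds the M2 exon, took 45.7% and 44.8%, which is 445 and 442 TPM. The mice thus gave nearly the same split, with a ratio of M1 over M2 of 1.16 in replicate 2 and 1.19 in replicate 1. In expected counts of the first table, M2 was slightly higher: 33704 against 32439 for M1 in replicate 2, and 33455 against 32986 in replicate 1. In the second transcript table the order of the TPM turned, with ratios of 0.939 in replicate 2 and 0.969 in replicate 1. There Pkm-206, counted with neither exon, took 8.88% of Pkm in replicate 2 and 8.56% in replicate 1. Which form was higher therefore depends on the quantification, while a large share of each was seen in both tables and both mice. The assignment of reads also rests on the first exons and the ends, in which Pkm-201 and Pkm-202 differ.

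**Figure D2:**
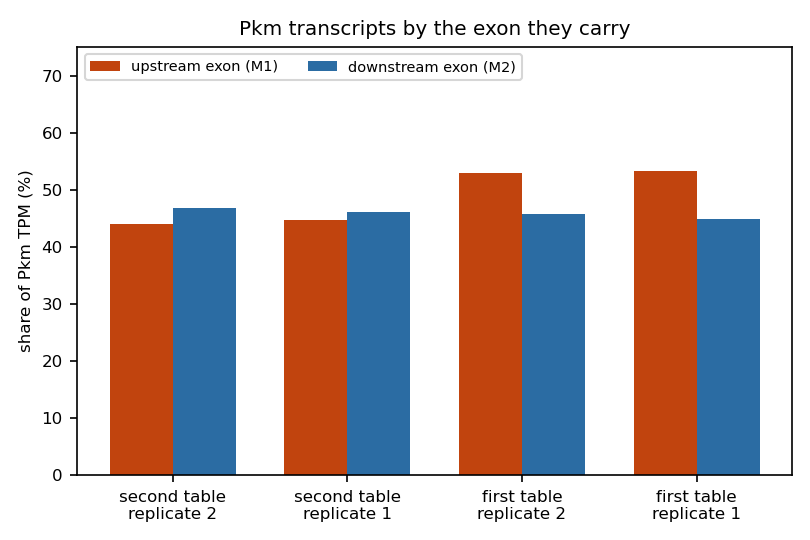
Share of Pkm TPM (%) in transcripts with the upstream M1 exon and the downstream M2 exon, for each library in the second and the first transcript table. The M1 exon took 43.96% to 44.7% in the second table and 53.0% to 53.4% in the first.

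Lactate dehydrogenase turns pyruvate into lactate and regenerates NAD+. Ldha, which encodes the M subunit typical of fast muscle (chromosome 7, 46841475 to 46855627, plus strand), had 952 TPM in replicate 2 and 996 in replicate 1. Ldhb, which encodes the H subunit typical of heart and oxidative fibres, had 56.4 and 39.8 TPM. The mice differed little in Ldha and by more in Ldhb, and the testis gene Ldhc had 0 counts in both. Lactate leaves fast fibres mainly through MCT4, encoded by Slc16a3, and enters oxidative fibres through MCT1, encoded by Slc16a1. Slc16a3 had 95.7 TPM in replicate 2 and 98.9 in replicate 1, and Slc16a1 had 11.4 and 10.6 TPM. Their shared chaperone basigin, encoded by Bsg, had 183 and 187 TPM. Slc16a3 held 88.9% ± 0.602 of the TPM of 3 such transporters.

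Glycogen is built from glucose 6-phosphate by Pgm1, which moves the phosphate, Ugp2, which makes UDP-glucose, Gyg, the glycogenin primer, Gys1, the muscle synthase, and Gbe1, the branching enzyme. Levels were lower towards the end of this route. Pgm1 had 318 TPM in replicate 2 and 356 in replicate 1, Ugp2 had 128 and 130.1 TPM, and Gyg had 70.9 and 66.8 TPM. Gys1 had 73.5 and 64.0 TPM, and Gbe1 had 17.1 and 16.8 TPM. Pgm2, a second phosphoglucomutase gene, had 2.84 and 2.99 TPM. Gyg and Gys1 could not be ordered, since Gys1 was higher in replicate 2 and Gyg in replicate 1.

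Breakdown was led by Pygm, the muscle glycogen phosphorylase (chromosome 19, 6384399 to 6398459, plus strand), at 1449 TPM in replicate 2 and 1457 in replicate 1, rank 25 among nuclear protein-coding genes. The brain and liver phosphorylases were low, with 6.50 and 6.46 TPM for Pygb and 1.70 and 1.39 TPM for Pygl. The level of Pygm was thus far above that of every synthesis gene, Pgm1 included, in both mice. Phosphorylase kinase, which switches phosphorylase on in response to calcium, is built from alpha, beta, gamma and calmodulin subunits. The catalytic gamma subunit of muscle, Phkg1, had 84.8 TPM in both libraries, while Phkg2, the liver and testis type, had 4.57 TPM in replicate 2 and 5.68 in replicate 1. The regulatory subunits were lower, with 34.3 and 36.3 TPM for Phka1, the muscle alpha subunit, and 44.8 and 50.6 TPM for Phkb.

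Of 3 genes for proteins that bind glycogen, 1 was even between the mice and the others were not. Ppp1r3a, the striated muscle subunit that targets protein phosphatase 1 to glycogen, had 55.0 TPM in replicate 2 and 56.3 in replicate 1. Ppp1r3c, a more widely used targeting subunit called PTG, had 70.1 and 43.5 TPM. Ppp1r3c therefore led the family in replicate 2, with 53.3% against 41.9% for Ppp1r3a, and Ppp1r3a led in replicate 1, with 52.5% against 40.6% for Ppp1r3c. None of the other families compared changed its leading gene between the mice. Stbd1, which tethers glycogen to membranes, had 55.5 TPM in replicate 2 and 70.6 in replicate 1.

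Isozyme use was compared in 19 families made of these genes and their relatives outside the list. In 13 of the 19, or 12 with the wider set of glucose transporters, 1 gene held over 90% of the summed TPM, among them Aldoa, Pfkm at 98.6% ± 0.0800, Pygm at 99.5% ± 0.0191, Gys1 at 99.9% ± 0.0580 and Phkg1 at 94.3% ± 0.823. Eno3 counts among the 13 at 92.9% ± 0.458, but its family leaves out the near-identical copy Eno1b. All 15 features named as copies, Eno1b included, summed to 88.6 TPM in replicate 2 and 94.4 in replicate 1. The share of Eno3 with Eno1b was not computed, so the enolases may not pass 90%. The families without such a lead were the lactate transporters, the phosphorylase kinase alpha subunits with Phka1 at 89.1% ± 0.411, the hexokinases, the glycerol phosphate dehydrogenases with Gpd1 at 76.2% ± 0.0860, the glycogen targeting subunits and the bifunctional kinases. Over 17 pairs of a muscle-type gene over a counterpart, the median log2 ratio was 6.45. Among pairs with both genes detected in both libraries, the ratio ran from 2.06 ± 0.40 for Hk2 over Hk1 to 12.35 ± 0.43 for Aldoa over Aldoc, leaving aside the targeting subunits. It was 3.01 ± 0.06 for Phka1 over Phka2, 3.13 ± 0.11 for Slc16a3 over Slc16a1 and 4.03 ± 0.22 for Phkg1 over Phkg2. It was 6.98 ± 0.01 for Pfkm over Pfkl, 7.79 ± 0.01 for Pygm over Pygb and 9.79 ± 0.20 for Pygm over Pygl. The exception was Ppp1r3a over Ppp1r3c, at 0.01 ± 0.51, with -0.35 in replicate 2 and 0.37 in replicate 1. Ratios are on the log2(TPM + 0.1) scale, and the large ones depend on the pseudocount, most of all those over Fbp1 and Gys2, which had at most 6 counts. With a pseudocount of 1 TPM, 11 of the 17 ratios moved by more than their replicate spread: Aldoa over Aldoc was 11.24, or 2413-fold in place of 5226-fold, and Pygm over Pygl was 9.16, or 572-fold in place of 887-fold. With posterior means Aldoa over Aldoc was 11.70. Isozymes with similar sequence could share reads, and the identity of the coding sequences ran from 62.2% for Slc16a3 with Slc16a1 to 78.2% for Pygm with Pygb.

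**Figure D3:**
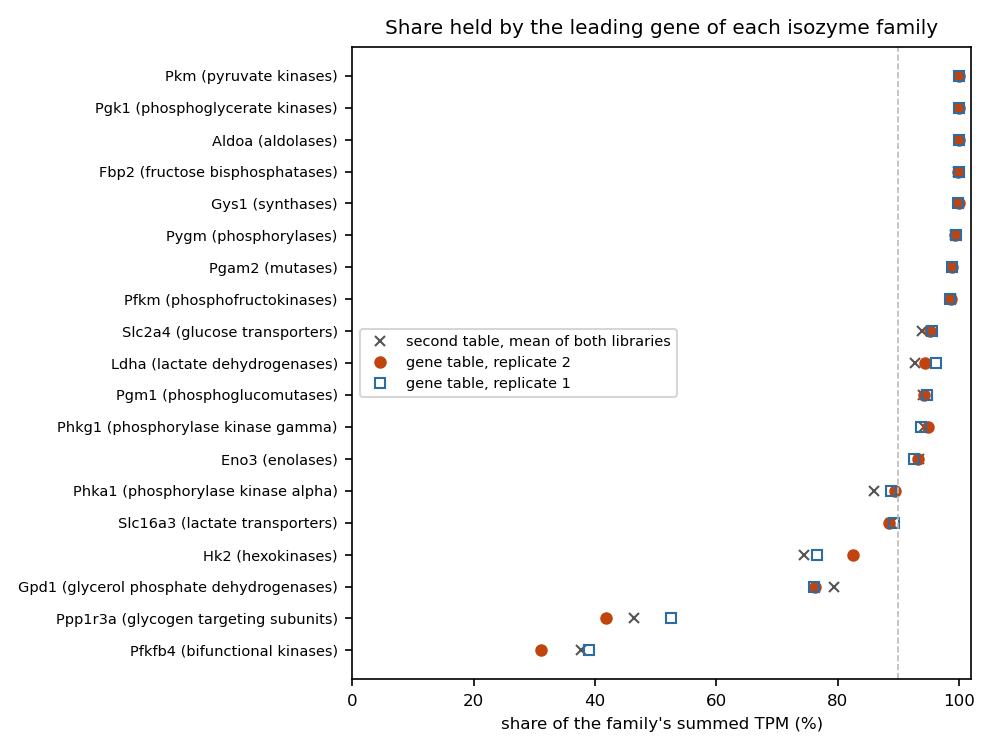
Share of its family's summed TPM (%) held by the leading gene of each of 19 isozyme families, for replicate 2 (filled circles) and replicate 1 (open squares) in the gene table and for the mean of the second table (crosses). The dashed line marks 90%, which 13 families passed, and Pfkfb4 leads the bifunctional kinases without being one of the 44 genes.

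Promoter sequence was described in RefSeq windows of 300 bases around an annotated start on GRCm38.p6. Windows were found for 42 of the 44 genes, 60 in all, and not for Gpd1 and Slc2a4. The mutase pair, 1247 against 14.2 TPM in replicate 2, is printed as an example of windows that differ, chosen after they had been seen, and not every pair shows this contrast. Capitals mark CANNTG, the E-box bound by MyoD-type factors.
Pgam2 promoter, chr11:5803747-5804046, minus strand: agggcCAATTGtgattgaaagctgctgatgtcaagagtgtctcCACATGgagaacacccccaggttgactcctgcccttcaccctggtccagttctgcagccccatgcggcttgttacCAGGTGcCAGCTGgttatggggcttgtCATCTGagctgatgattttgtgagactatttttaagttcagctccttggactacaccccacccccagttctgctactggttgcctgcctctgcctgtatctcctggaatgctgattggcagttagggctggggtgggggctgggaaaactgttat
Pgam1 promoter, chr19:41911621-41911920, plus strand: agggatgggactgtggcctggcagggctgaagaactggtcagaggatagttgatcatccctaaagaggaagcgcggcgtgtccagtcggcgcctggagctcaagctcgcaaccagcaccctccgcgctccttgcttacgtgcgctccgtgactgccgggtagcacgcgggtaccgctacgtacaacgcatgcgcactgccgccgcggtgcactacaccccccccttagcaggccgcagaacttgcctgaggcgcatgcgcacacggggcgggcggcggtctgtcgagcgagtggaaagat
The Pgam2 window held 5 E-boxes, 1 CpG and a match to the MEF2 motif, and its GC content was 53.3%. The Pgam1 window held 0 E-boxes, 30 CpG and 2 matches to GGGCGG, with a GC content of 65.0%. By comparison, the Slc16a3 window held 0 E-boxes and 36 CpG against 1 and 42 for Slc16a1, and the Hk2 window held 0 E-boxes and 25 CpG. The Pgam2 window was the only 1 of 18 muscle-type windows with a MEF2 match. Across the pairs, only genes of the list were used, and the pair of Ppp1r3a and Ppp1r3c was left out. CANNTG stood in 83.3% of 18 windows of 12 muscle-type genes and in 47.1% of 17 windows of 13 counterparts. Over all 32851 windows it stood in 72.3%. CAGCTG, a narrower E-box, stood in 38.9% of the muscle-type windows and 0% of these counterparts, against 16.3% of all windows. The left-out Ppp1r3c window held 2 E-boxes, among them a CAGCTG, so the 0% depends on that choice. The median number of CpG was 10.5 in the muscle-type windows and 20 in the counterparts, against 7 over all. Over all 60 windows of the genes, ACGTG, the core of the hypoxia response element, stood in 46.7%, against 19.6% of all windows. CACGTG, which also counts as CANNTG and holds ACGTG, stood in 13.3% against 7.15%, and GGGCGG in 55.0% against 35.7%. The MEF2 motif stood in 5% against 3.19%. Both strands were searched, the windows of 1 gene can overlap, and a match is a run of letters, not a bound site. ACGTG and GGGCGG hold CpG, and the windows of these genes have more CpG than most, with a median of 16.

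The 2 mice were compared by scaled counts over the 42 genes that averaged at least 100 counts, as log2 of replicate 2 over replicate 1 with a 95% counting interval. Most of the 42 genes differed little. The median was 0.07, against 0.02 over 10954 protein-coding genes, and the median size without sign was 0.12, against 0.11. Replicate 2 was higher for 31 of the 42 genes and lower for 11, while 55.9% of the 10954 genes were higher. By more than 0.32 on the log2 scale, 5 of 42 genes were higher in replicate 2, against 5.61% of the 10954 genes, and 0 of 42 were lower, against 4.07%. At 1.5-fold or more the counts were 2 higher, against 1.1%, and 0 lower, against 0.584%. No difference of the group as a whole is read from counts this small.

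The 5 genes act at glucose entry, lactate use and glycogen, and they were chosen for description after their values were seen. Ppp1r3c was highest, at 0.76 (0.70 to 0.82), or 1.69-fold, and Hk2 followed at 0.63 (0.56 to 0.69), or 1.54-fold. Ldhb had 0.52 (0.42 to 0.63), Pygl had 0.50 (0.14 to 0.87) on 151 and 112 counts, and Slc2a1 had 0.48 (0.21 to 0.75) on 264 and 199 counts. Next came Gys1, the glycogen synthase gene, at 0.30 (0.26 to 0.35). Of the 11 genes with a lower level in replicate 2, those furthest from 0 were Stbd1 at -0.28 (-0.34 to -0.21), Phkg2 at -0.28 (-0.55 to -0.01), Fbp2 at -0.26 (-0.35 to -0.18), Pfkfb2 at -0.25 (-0.50 to -0.01) and Pfkfb3 at -0.22 (-0.37 to -0.06). Past the hexokinase step, led by Hk2, the lead gene of each step to lactate stayed within 0.2 of 0. These ran from Pfkm at 0.18 and Aldoa at 0.17 to Ldha at 0.01 and Pgk1 at -0.02. The interval of counting error lay above 0 for 23 of 42 genes and below 0 for 8, against 21.9% and 13.7% of the 10954 genes. Such intervals narrow as counts grow and these genes have higher levels than most, so nothing is read from those shares, which are about these 2 libraries and not about mice in general. The second table gave ratios within 0.09 of these for every one of the 42 genes, with another sign for 2 of them, Pgk1 and Eno1, both near 0.

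Markers of other cell types differed between the same 2 libraries. Of the 10954 protein-coding genes that averaged at least 100 counts, 55.9% were higher in replicate 2, so marker counts near that share say little. All 8 slow fibre markers were higher in replicate 2. Their median log2 ratio was 0.61 and their summed level was 1328 TPM in replicate 2 and 965 in replicate 1. For fast fibres 6 of 9 were higher, with a median of 0.08 and sums of 74272 and 76020 TPM. The ratios use scaled counts and the sums are TPM without that scaling, so they can point in different directions. The library scaling of replicate 2 over replicate 1 was -0.07 on the log2 scale, so the fast fibre median is of about that size. Of the erythroid markers, 5 of 5 with enough counts were higher, with a median of 0.92 and sums of 2083 and 1139 TPM. All 6 endothelial markers were higher, with a median of 0.20 and sums of 168 and 155 TPM, and so were all 6 mural markers, with a median of 0.30 and sums of 403 and 349 TPM. All 6 fibroblast markers were lower, with a median of -0.10 and sums of 4451 and 4899 TPM. Of the other lists, 3 of 5 macrophage, 1 of 6 Schwann cell and nerve, and 2 of 5 adipocyte markers were higher, with medians of 0.06, -0.12 and -0.02. All 6 muscle identity markers were higher, with a median of 0.21. No marker in these lists was at 0 in both libraries. Ldhb is known from slow fibres and Slc2a1 from endothelium, and the part of these cell types in the differences was not tested.

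**Figure D4:**
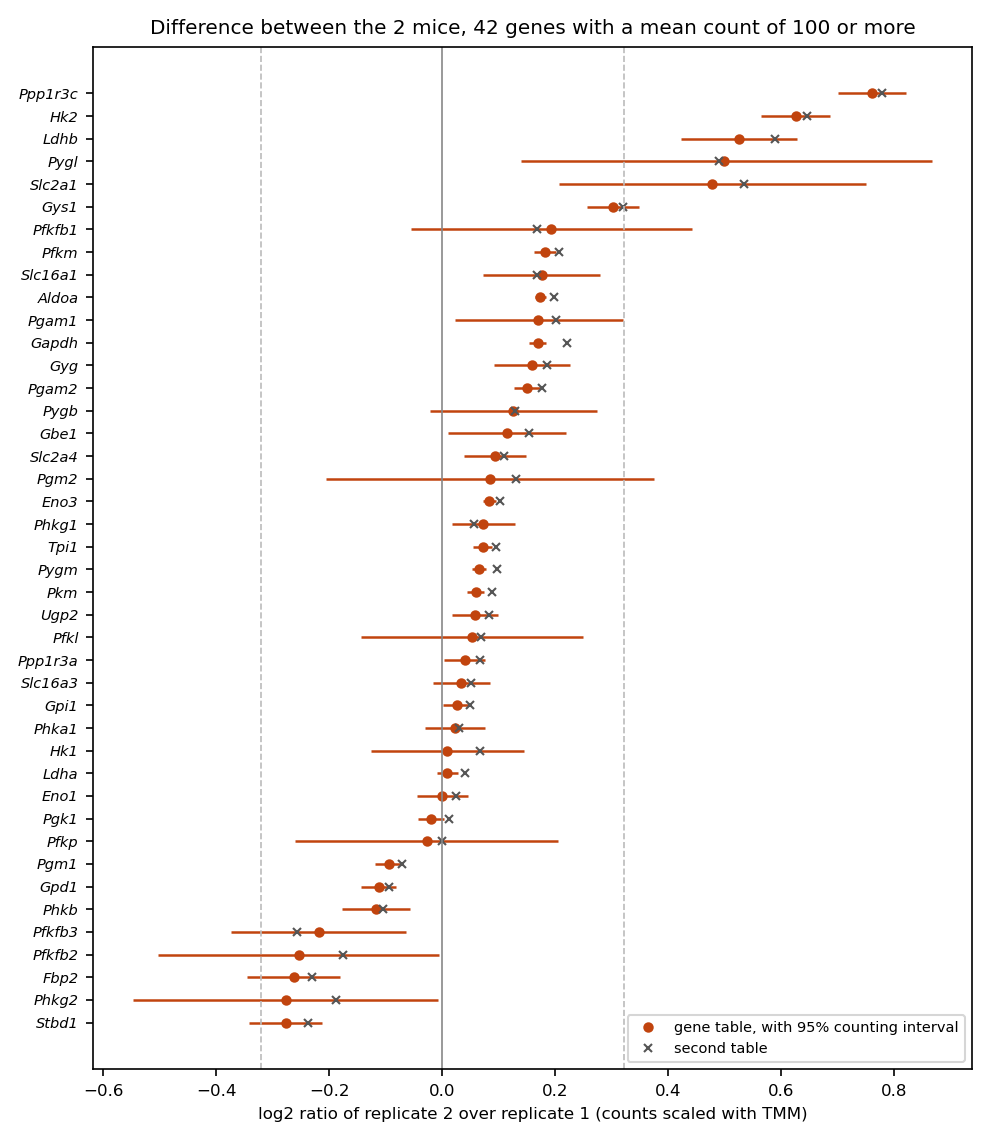
Log2 ratio of replicate 2 over replicate 1 for 42 genes, with 95% counting intervals (bars) and the ratio from the second table (crosses). Dashed lines mark 0.32 either way, which Ppp1r3c, Hk2, Ldhb, Pygl and Slc2a1 passed upward and none of the 42 passed downward.

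The second deposited table quantified the same libraries separately from transcripts. Its TPM were higher by a median of 0.52 on the log2 scale in replicate 2 and 0.56 in replicate 1, so genes were compared after that shift was removed. Over 1.5-fold higher in the second table were 2 of 42 genes, against 4.33% of protein-coding genes, and 0 of 42 were over 1.5-fold lower, against 1.97%. The 2 genes were Gapdh, 1.19 higher on the log2 scale, and Ldhb, 0.67 higher. For Gapdh the second table also assigned 1.76 times the counts of the gene table. For Ldhb the counts differed by a factor of 1.02 only, and the level was 127 TPM in replicate 2 and 95.01 in replicate 1 of the second table, against 56.4 and 39.8 TPM in the gene table. The share of Ldha among lactate dehydrogenases was 92.8% in the second table, against 95.3% in the gene table.

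Many of the genes have several annotated transcripts, and the tables differ in which of them leads. Among 38 genes with more than 1 transcript and at least 100 counts on average, the median leading transcript held 72.1% of its gene in the first transcript table, against 66.9% over all such genes. The leader held over 90% in 12 of the 38 and under 50% in 7. Another transcript led in the second table for 12 of 38 genes, against 23.2% of 10034 genes. Genes with a settled leader included Gpd1, with Gpd1-201 at 99.2% of its gene, Fbp2 with Fbp2-201 at 100%, Gys1 with Gys1-201 at 95.6% and Pygm with Pygm-201 at 84.9%. A retained-intron transcript of Pygm, Pygm-203, took 14.5% in replicate 2 and 14.2% in replicate 1. The single-transcript genes Pgam2, Slc16a1, Ppp1r3a and Ppp1r3c leave no such choice.

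The unsettled genes included several of the highest. Aldoa-201, whose start lies at 126799254 on chromosome 7, took 52.7% of Aldoa in replicate 2 and 52.0% in replicate 1 of the second table, against 39.4% and 37.3% in the first. There Aldoa-203, with a start upstream at 126800447, led at 48.9% and 50.7%, and in the second table it was close to 0. Gapdh-208, a processed transcript of 483 bases without a coding frame, took 0% of Gapdh in the second table, against 68.6% and 68.1% in the first, where the full-length Gapdh-201 took 30.4% and 30.8%. In the second table Gapdh-201 was at 0, and Gapdh-207, of 471 bases, led at 36.5% and 39.9%. Ldha-201 took 56.0% and 54.0% of Ldha in the second table and 0% in the first, where Ldha-202 took 98.7% and 98.2%. Gyg-201 took 80.8% and 72.1% in the second table, against 2.95% and 3.34% in the first. How reads common to overlapping transcripts were divided was not tested, and the 12 genes are by definition those with different leaders in the 2 tables. Coding transcripts made 96.5% ± 0.738 of the genes' TPM in the second table, against 84.6% ± 0.368 in the first, or 97.0% ± 0.0900 there without Gapdh. Retained-intron transcripts made 1.69% ± 0.186 of the genes' TPM in the first table and 5.85% ± 0.328 over all protein-coding genes tested.

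Transcripts of the same gene were also grouped by start, with starts within 100 bases of each other counted as 1. Pfkm transcripts were assigned to several starts: the upstream one at 98092589 on chromosome 15 took 52.0% in replicate 2 and 43.1% in replicate 1 of the second table, against 69.9% and 70.0% in the first. The one at 98108466, that of Pfkm-201, took 16.3% and 28.1% in the second table, against 30.1% and 30.0% in the first. A further start at 98094870, that of Pfkm-204, took 31.7% and 28.8% in the second table, against 0.03% and 0% in the first. Hk1 was spread over several starts, and Hk1-202 took 23.8% and 25.6% in the second table, against 62.8% and 56.0% in the first. For Slc16a3 the start of Slc16a3-201 led in both tables, at 86.9% and 83.5% in the second, against 67.6% and 61.3% in the first. For Ugp2 the start of Ugp2-201 took 65.1% and 59.5% in the second table, against 46.4% and 46.9% in the first, and that of Ugp2-202 took 24.8% and 23.8%, against 53.1% and 52.3%. Further Ugp2 starts had under 1% in the first table, but in the second Ugp2-203 took 10.1% in replicate 2 and Ugp2-204 took 16.7% in replicate 1, each at 0 in the other library. Gbe1-203 took 96.9% and 96.7% of Gbe1 in the second table, against 38.7% and 26.4% in the first. Eno3 had no settled leader either, but its upstream group of starts at 70657202 took 81.2% and 83.6% in the second table, against 77.0% and 77.7% in the first. All 7 annotated transcripts of Phka1 fall in 1 start group, so neither table could divide them.

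**Figure D5:**
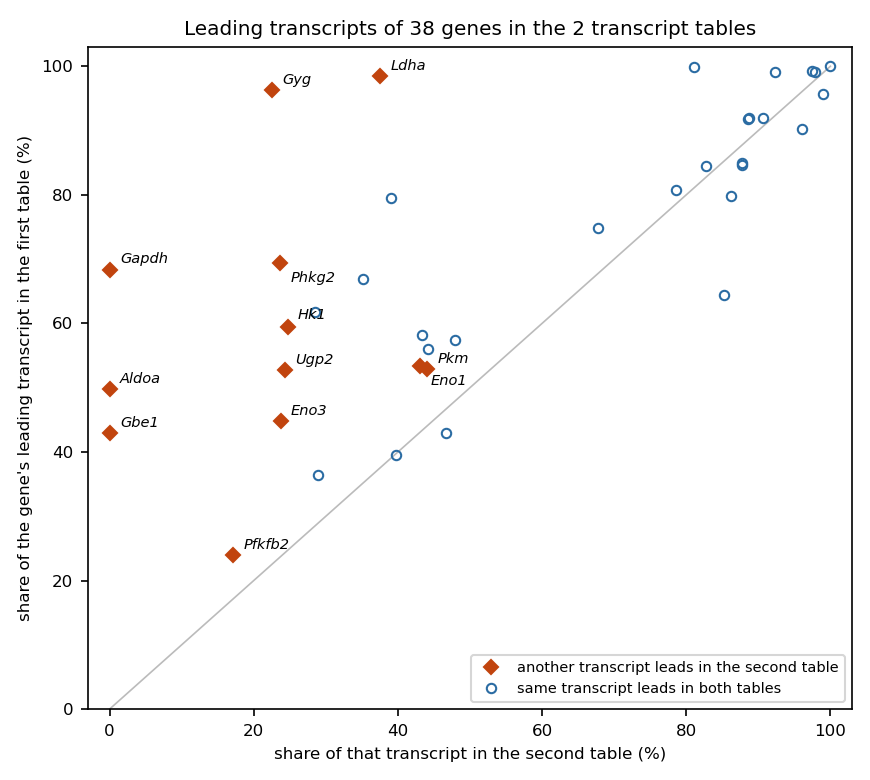
Share of each gene's leading transcript in the first transcript table (%, vertical axis) against the share of that transcript in the second table (%, horizontal axis), as means of both libraries, for 38 genes. For 12 genes (filled diamonds) another transcript leads in the second table, and those of Gapdh, Aldoa and Gbe1 lie at about 0% there.

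Genes next to the pathway were described from a list of 53, of which 37 reached 1 TPM in both libraries and 5 had 0 counts in both, namely Gapdhs, Pgk2, Pklr, Ldhc and Ppp1r3g. The mitochondrial pyruvate carrier subunits Mpc1 and Mpc2 had 118 and 86.3 TPM in replicate 2, against 103.03 and 79.3 TPM in replicate 1. The catalytic subunit genes of protein phosphatase 1 included Ppp1ca, with 139 and 148 TPM, and Ppp1cb, with 150.4 and 155 TPM, in replicates 2 and 1. Lysosomal glycogen breakdown was represented by Gaa, at 30.9 and 28.8 TPM. Bpgm, which makes 2,3-bisphosphoglycerate, had 21.2 and 18.1 TPM, and Tigar, a fructose 2,6-bisphosphatase, had 6.50 and 3.55 TPM, a log2 ratio of 0.71 (0.50 to 0.92). Pfkfb4 had the opposite sign, at -0.49 (-0.63 to -0.34). Of 16 genes that control glucose uptake, 15 reached 1 TPM. The highest was Txnip, whose product restrains glucose uptake, with 158 TPM in replicate 2 and 221 in replicate 1, and its log2 ratio of -0.46 (-0.49 to -0.43) was the furthest from 0 of the 15 that averaged at least 100 counts. Rab10 and Rac1, GTPases of GLUT4 traffic, had 98.9 and 101 TPM in replicate 2 and 101 and 101 TPM in replicate 1, and Lnpep, the aminopeptidase of GLUT4 vesicles, had 39.6 and 40.4 TPM. The Rab regulators Tbc1d1 and Tbc1d4 had 14.0 and 11.8 TPM in replicate 2, against 15.1 and 12.1 TPM in replicate 1. The median log2 ratio between the mice was 0.07 over 35 neighbours and -0.01 over 15 uptake genes.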

How the data were processed

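Expected counts, posterior mean counts and TPM come from the authors' gene and transcript tables, which the deposited notes trace to transcriptome alignments (mm10, GENCODE M21). The deposited transcript tables also give each transcript's percent of its gene. A second deposited transcript table holds estimated counts and TPM derived from FASTQ files, summed here per gene. The sources used here name no aligner or program version and do not say whether strand was used, which leaves genes with antisense partners uncertain.

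Depth was 38160786 expected counts for replicate 2 and 38874862 for replicate 1. The members and lists were chosen with earlier results of these data known. Each symbol was matched to the gene of highest count. All 44 genes are accounted for, with values for those described, and genes next to the pathway are named where they reach 1 TPM in both libraries or belong to a family, apart from a gene that is not reported here. Shares and isozyme ratios used TPM, with a pseudocount of 0.1. Ratios of replicate 2 over replicate 1 used expected counts rounded for edgeR 4.0.16 TMM scaling over genes that averaged at least 10 counts, in R 4.3.3, with a prior count of 0.5. Their 95% intervals are exact binomial and cover counting error alone, because without molecular identifiers reads are not independent molecules. On data simulated with counting error alone for 10954 genes, 95.4% of intervals held the simulated ratio. That checks the computation and not how well the intervals cover differences between mice. The real libraries differed by more than counting error, which alone gives a chi-square per degree of freedom of about 1. It was 22.5 over the 10954 genes and 58.5 over the 42 genes compared. Ratios between tables were centred on the median of protein-coding genes that averaged at least 100 counts. Alternatives were the second table, posterior means, DESeq2 1.42.0 size factors, library and spike-in totals, other filters, pseudocounts and prior counts, and leaving out each library. Protein sequences were not used here; coding sequences of the annotated transcripts were aligned with biopython 1.88 in Python 3.11.15, which was decided after the data had been seen. Promoter windows are from RefSeq on GRCm38.p6.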

Additional observations from a re-analysis of the deposited data

How the results depend on the processing

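No paired analysis was possible because there is 1 group. In the second table the genes held 4.96% of nuclear protein-coding TPM, with posterior means 4.35%, and without either library 4.37% to 4.45%, against 4.41% as reported. Their median level was 88.1 TPM in the second table, 132 TPM when scaled to nuclear protein-coding genes and 56.0 to 60.1 TPM without either library, against 58.2 TPM. The median isozyme ratio was 6.39 in the second table, 6.42 with posterior means, 5.87 with a pseudocount of 1 and 6.44 to 6.46 without either library, against 6.45 on the log2 scale. The median ratio between the mice was 0.0246 with library totals, 0.0363 with spike-in totals, 0.0914 in the second table and 0.0931 as a mean, against 0.0678. The count of 5 genes higher in replicate 2 by over 0.32 was 3 among genes averaging at least 1000 counts and 2 at 1.5-fold, both chosen after seeing the data, and stayed 5 under the other 8 alternatives. The count of 0 lower genes became 1 with a minimum count of 20 and with no filter, through Aldoc, at 26 and 37 counts in replicates 2 and 1. At 2-fold, 1 gene in place of 2 differed between the tables, and leaving out either library left 2. The median leading transcript share was 65.1% in the second table and 72.3% to 76.2% without either library, against 72.1%. The M1 exon share of Pkm was 44.3% in the second table and 53.0% to 53.4% without either library, against 53.2%. Of 796 values of single genes, families, pairs and transcripts under an alternative, 544 moved by less than their replicate spread or counting interval and 252 by more. With 2 libraries, the value of either library always lies within the SD of their mean, unless the SD is 0. The 544 thus include left-out values that could not count as moved, and the tally does not measure robustness to leaving out a library. Of the ratios with a clear sign, 0 changed it, while levels and shares cannot change sign. The ratios between the mice have no left-out value, since each uses both libraries. With 2 libraries the spread between mice is itself poorly known, and genes such as Pygl and Slc2a1, with under 300 counts, have wide intervals.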
